A study of Mus musculus with 6 samples.

Results

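Histone genes were examined in motor neurons (MNs) made from control and spinal muscular atrophy (SMA) mouse embryonic stem cells (mESCs), and were taken by symbol from the deposited table of gene expression. Symbols that begin with Hist1h to Hist4h were counted as replication-dependent genes, and symbols that begin with H2af, H3f3 or H1f as variant genes. The rule found 89 histone symbols among the 34433 symbols of the table, of which 70 were replication-dependent and 19 were variant. Where a symbol had more than 1 entry, the entry with the highest FPKM (mapped fragments scaled to transcript length and to the size of the library) was used.

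Histones are the proteins around which DNA is wound in the nucleosome, with H2A, H2B, H3 and H4 in the core and H1 as the linker. Most are made from replication-dependent genes, which lie in clusters, are transcribed mainly in S phase and give mRNAs that end in a conserved stem-loop and not in a poly(A) tail. That end is cut with the help of the stem-loop binding protein SLBP and the U7 snRNP, a small particle with the proteins Lsm10 and Lsm11 in its ring that is assembled by the SMN complex, and SMN is the protein reduced in SMA. Variant genes lie alone, are expressed outside S phase as well, and mostly give polyadenylated mRNAs.

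The Hb9 control line (*SMN2+/+;mSmn+/+*) and the A2 SMA line (*SMN2+/+;mSmn-/-*) are FVB/N mESCs that both carry the human *SMN2* transgene and an eGFP reporter under the HB9 promoter. Embryoid bodies of both lines received 1 µM retinoic acid and 1 µM SAG, an agonist of Smoothened, for 5 days, and eGFP-positive cells that excluded propidium iodide were sorted by FACS. RNA from 3 samples per genotype was sequenced after preparation with the TruSeq RNA kit, which by its design selects polyadenylated RNA and does not mark the strand. Each genotype is represented by 1 line, so that genotype and cell line cannot be told apart. They are called Hb9 control MNs and A2 SMA MNs, or Hb9 and A2 MNs where their values are set side by side. The table gives 1 pooled FPKM value per genotype and gene, and no difference below was set against the spread between samples. The authors' own test columns were not used. No depth per sample was used, and no counting error is given. FPKM is a level per length of transcript, and all comparisons of levels between genes below are on that scale.

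The genotype was checked on the targeted gene. Smn1 was at 137 FPKM in Hb9 and 5.26 FPKM in A2 MNs, which is 25.9-fold lower. Mnx1, the gene that encodes HB9 and whose promoter drives the reporter, was at 41.2 FPKM in Hb9 and 44.2 FPKM in A2 MNs. The other markers of the cell type were not alike in the genotypes. Of 7 MN markers found by symbol, 6 passed the filter described below. Of these, 5 were at least 2-fold lower in A2 SMA MNs, against 22.2% of all genes that passed. Isl1 and Isl2 among them reached 1 FPKM in both genotypes. Lhx3, Lhx4 and Chat did so only in Hb9 control MNs, so that they passed the filter through that genotype alone. Isl1 was at 108 and 5.95 FPKM, Lhx3 at 27.6 and 0.348 FPKM and Chat, the enzyme that makes acetylcholine, at 15.5 and 0.344 FPKM in Hb9 control and A2 SMA MNs. No MN marker was listed at 0, and the summed level of the list was 216 FPKM in Hb9 and 52.5 FPKM in A2 MNs, with Isl1 as the most abundant gene in the former and Mnx1 in the latter.

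Markers of other states moved with the genotype as well. All 8 pan-neuronal markers found by symbol were at least 2-fold lower in A2 SMA MNs, against 22.2% of all genes that passed. Of these, Syt1 reached 1 FPKM in Hb9 control MNs only, so that it passed the filter through that genotype alone. The sums of the list were 1246 and 132 FPKM. Nefm, a neurofilament gene, was the most abundant in Hb9 control MNs at 359 FPKM. In A2 SMA MNs it was Stmn2 at 78.0 FPKM, whose entry carries the Cuffdiff status FAIL. All 9 embryonic stem cell markers were at least 2-fold higher in A2 SMA MNs, against 6.78% of all genes that passed. Their sums were 279 and 1808 FPKM, with Pou5f1 as the most abundant at 98.3 and 775 FPKM. Of 8 markers of feeder fibroblasts, 5 were at least 2-fold lower and 1 was at least 2-fold higher in A2 SMA MNs as deposited. The shares of all genes that passed were 22.2% and 6.78%. Relative to the median of all genes, 2 were lower (Lum and Postn) and 1 higher (Thy1), against 16.5% and 10.3% of all genes. Lum and Postn reached 1 FPKM only in Hb9 control MNs and Thy1 only in A2 SMA MNs. The filter thus set their direction. The sums of the list were 69.6 and 36.6 FPKM. Most abundant were the collagen genes Col1a2 (20.1 and 8.93 FPKM) in Hb9 and Col1a1 (18.9 and 9.41 FPKM, status FAIL) in A2 MNs. No gene of these lists was listed at 0. In bulk samples, fewer cells of a type and less RNA per cell cannot be told apart. What part these differences in cell state have in the histone values was not tested.

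The classes differed most in their level. Summed over entries, replication-dependent histone genes reached 61.6 FPKM in Hb9 and 55.5 FPKM in A2 MNs. Variant histone genes reached 1694 and 1298 FPKM. The 70 replication-dependent symbols thus held 3.51% of the summed histone FPKM in Hb9 control MNs and 4.10% in A2 SMA MNs. Nearly all of the histone FPKM in both genotypes came from variant genes. Because the kit selects polyadenylated RNA, few replication-dependent mRNAs in the cells and their loss during preparation cannot be told apart. The difference in level between the classes is therefore one of these libraries.

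A value of 0 FPKM was listed in both genotypes for 15 of the 70 replication-dependent symbols (21.4%) and for 5 of the 19 variant symbols (26.3%). Over all symbols of the table, 10299 (29.9%) were listed at 0 in both. The share at 0 was thus no higher among replication-dependent genes than in the whole table. Of the replication-dependent symbols, 57 (81.4%) stayed below 1 FPKM in both genotypes, against 8 variant symbols (42.1%) and 54.0% of all symbols. The median of the higher genotype was 0.261 FPKM for replication-dependent, 9.22 FPKM for variant and 0.513 FPKM for all symbols. All 5 variant symbols at 0 (H3f3c, H3f3a-ps1, H3f3a-ps2, H2afb2-ps and H2afb3-ps, named after their values were seen) are pseudogenes by their symbol or in GENCODE M21. With pseudogenes left out, a choice made after the values were seen, 0 percent of variant and 19.4% of replication-dependent symbols were at 0 in both genotypes.

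Ratios of A2 SMA over Hb9 control MNs were formed for genes that reached 1 FPKM in a genotype and were above 0 in the other, and a change was called at 2-fold without a test. This filter was passed by 13 of 70 replication-dependent symbols, 11 of 19 variant symbols and 15784 symbols in all. The median log2 ratio of all these genes was -0.29, so that changes are also given relative to it. Among all genes that passed, 22.2% were at least 2-fold lower and 6.78% at least 2-fold higher in A2 MNs. Relative to the median gene, these shares were 16.5% and 10.3%.

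Of the 11 variant genes that passed, 3 were at least 2-fold lower and 0 at least 2-fold higher in A2 SMA MNs, with a median log2 ratio of -0.42, or -0.14 relative to the median gene. Of the 13 replication-dependent genes that passed, 3 were at least 2-fold lower and 1 at least 2-fold higher, with a median log2 ratio of 0.41, or 0.69 relative to the median gene. Shares of 3 in 11 and 3 in 13 lie near the 22.2% of all genes, and the histone genes therefore did not stand apart by the number called lower. The median of the variant genes was below that of the replication-dependent genes by a log2 difference of -0.83, but by -0.34 without the filter, where the replication-dependent median was 0.022. A gene near 1 FPKM passes through the genotype in which it is higher, and 7 of the 13 replication-dependent genes did so. Hist2h2be, Hist1h1e and Hist1h1b reached 1 FPKM only in Hb9 control MNs, and Hist1h2bk, Hist1h4d, Hist4h4 and Hist2h3c1.1 only in A2 SMA MNs. Of the 6 that reached it in both, 3 were lower and 3 higher in A2 SMA MNs, so the median of the 13 describes no common direction.

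**Figure D1:**
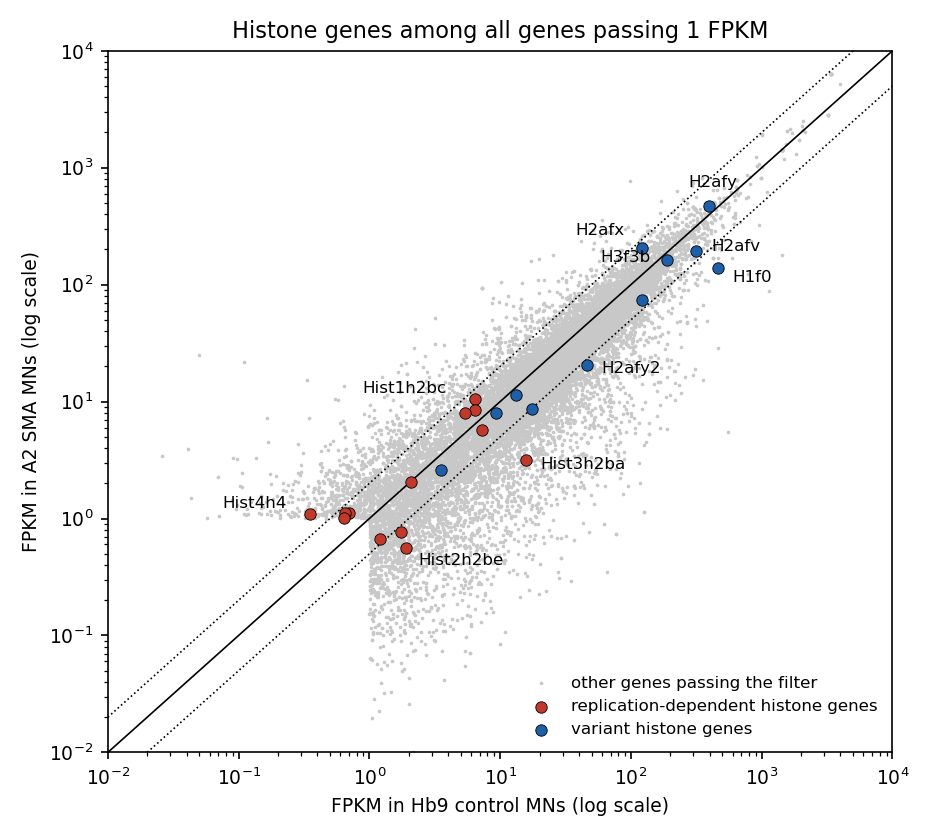
FPKM in A2 SMA MNs (y axis, log scale) against FPKM in Hb9 control MNs (x axis, log scale), 1 point per gene, for the 15784 genes that passed the filter, with the 13 replication-dependent histone genes in red and the 11 variant histone genes in blue. The solid line marks equal values and the dotted lines 2-fold differences, and the replication-dependent genes lie at lower levels than most variant genes.

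The summed FPKM of the replication-dependent genes had a log2 ratio of -0.15, and of 0.14 relative to the median gene. The negative sign rested on Hist3h2ba, since the log2 ratio of the sum was 0.19 without it. The summed FPKM of the variant genes had a log2 ratio of -0.38, or -0.10 relative to the median gene. H1f0 made up most of that difference, and the log2 ratio of the variant sum was -0.093 without it. The choices to leave out Hist3h2ba and H1f0 were made after the values were seen.

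The abundant linker histone variants were lower in A2 SMA MNs. H1f0 encodes the linker histone that is known to accumulate in differentiated and non-dividing cells. It was at 459 FPKM in Hb9 and 140 FPKM in A2 MNs, a log2 ratio of -1.72, or -1.43 relative to the median gene. In Hb9 control MNs it was the most abundant histone gene, held 26.2% of the summed histone FPKM and lay above 99.5% of the symbols with a value above 0. In A2 SMA MNs its share of the histone FPKM was 10.3%. H1f0 was the 1 variant gene that was still at least 2-fold lower relative to the median gene.

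H1fx, a replication-independent linker histone, was at 121 FPKM in Hb9 and 73.4 FPKM in A2 MNs, a log2 ratio of -0.72, which did not reach 2-fold. Its entry shares a span of 64849 bp with that of Rab7, which had 29.0 and 27.6 FPKM. Named after their values were seen, H1foo, the linker histone of the oocyte, was at 0.0442 and 0.0948 FPKM, and H1fnt, the linker histone of the spermatid, at 0.0269 and 0.0273 FPKM. The germline linker histones were thus close to 0 in both genotypes.

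Variants of H2A moved in both directions. H2afx encodes H2A.X, which is phosphorylated at DNA breaks. It was at 121 FPKM in Hb9 and 208 FPKM in A2 MNs, a log2 ratio of 0.77 that did not reach 2-fold as deposited and was 1.06 relative to the median gene. Its share of the summed histone FPKM was 6.91% in Hb9 control MNs and 15.3% in A2 SMA MNs. H2afx is thus the 1 variant gene that was at least 2-fold higher relative to the median gene.

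H2afy and H2afy2 encode the macroH2A proteins, which carry a large globular domain and are known from silent chromatin. H2afy was at 398 FPKM in Hb9 and 471 FPKM in A2 MNs, and was the most abundant histone gene in A2 SMA MNs. H2afy2 was at 45.8 and 20.7 FPKM, a log2 ratio of -1.14. The 2 macroH2A genes thus had opposite directions, and this held relative to the median gene, where their log2 ratios were 0.53 and -0.86. The entry of H2afy2 carries the Cuffdiff status FAIL and shares its span with Aifm2, which had 13.1 FPKM in both genotypes. H2afy3 was at 17.5 and 8.64 FPKM, a log2 ratio of -1.02 and -0.74 relative to the median gene. GENCODE M21 lists it as a processed pseudogene of 1112 bases, whereas its entry in the table spans 340110 bp shared with the noncoding gene Pvt1, so that the source of its reads is uncertain.

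H2A.Z is encoded by H2afz and H2afv and is found at promoters. H2afv was at 316 FPKM in Hb9 and 192 FPKM in A2 MNs, a log2 ratio of -0.72, or -0.43 relative to the median gene. H2afz was listed far below it, at 9.22 and 7.99 FPKM, with another entry of the same span at 5.23 and 4.07 FPKM. Of the windows of 50 bases in the transcripts of H2afz, 35.4% were also found in transcripts of other genes, against 0 for H2afv, so that the level of H2afz is uncertain. H2afj was at 13.2 and 11.4 FPKM. The log2 ratios of H2afz and H2afj were -0.21 and -0.22, and both turned positive relative to the median gene, at 0.08 and 0.07. H2afb1, a variant of the testis that was named after its values were seen, was at 0.139 and 0.0883 FPKM.

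H3f3a and H3f3b encode the same H3.3 protein, which is placed into chromatin outside replication. H3f3b was at 188 FPKM in Hb9 and 162 FPKM in A2 MNs, a log2 ratio of -0.22, and of 0.07 relative to the median gene. Its other entry of the same span was at 105 and 104 FPKM. H3f3a was at 3.51 and 2.62 FPKM, a log2 ratio of -0.42. Neither H3.3 gene reached 2-fold. For H3f3a, 27.1% of the windows of 50 bases were also found in transcripts of 193 other genes, against 6.86% and 3 other genes for H3f3b. The entry of H3f3a also shares its span with Gm17275, at 3.58 and 1.75 FPKM, and Gm16067, at 0.967 and 0.206 FPKM. The level of H3f3a is uncertain for these reasons.

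**Figure D2:**
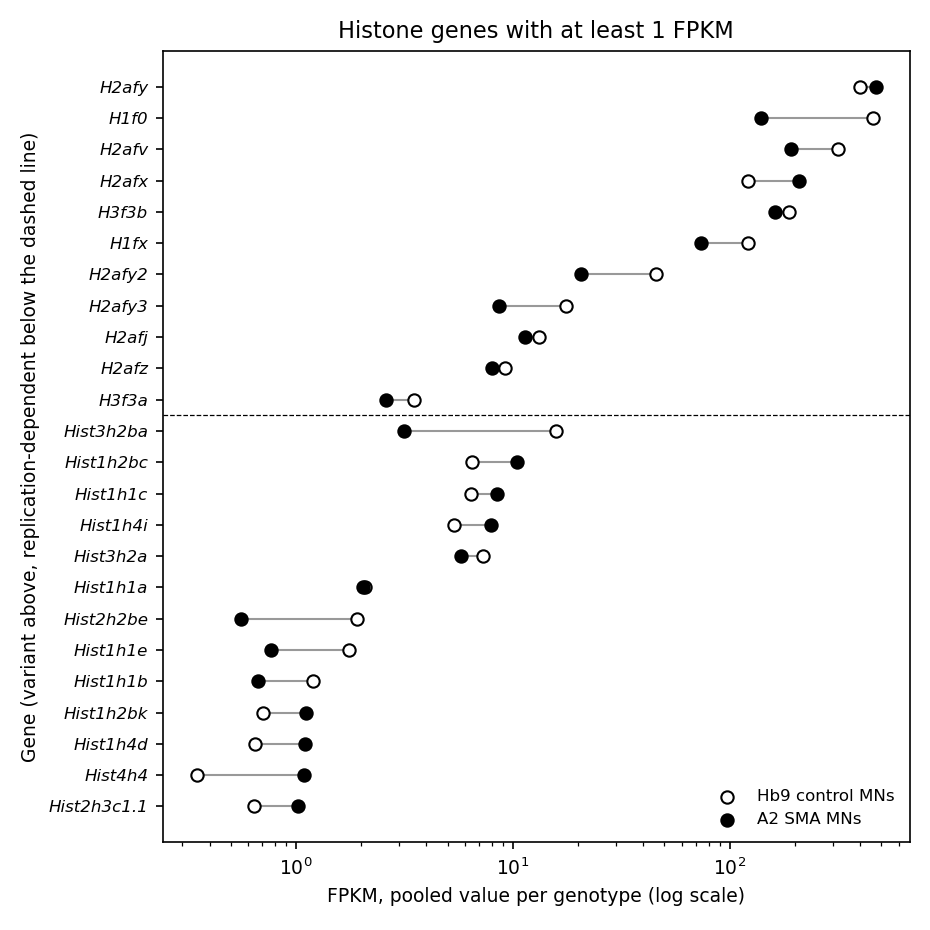
Pooled FPKM per gene (x axis, log scale) in Hb9 control MNs (open points) and A2 SMA MNs (filled points) for the 11 variant and 13 replication-dependent histone genes that passed the filter (y axis, 1 gene per line). H1f0 and Hist3h2ba show the longest falls among the genes above 10 FPKM, while H2afy, H2afx, Hist1h2bc, Hist1h1c and Hist1h4i were higher in A2 SMA MNs.

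Of the 4 replication-dependent H2B genes that passed, 2 were lower and 2 higher in A2 SMA MNs. Hist3h2ba was at 15.7 FPKM in Hb9 MNs, the highest value of a replication-dependent gene in either genotype, and at 3.15 FPKM in A2 MNs. It was 5.01-fold lower as deposited, a log2 ratio of -2.32, and the log2 ratio relative to the median gene was -2.04. Hist2h2be was at 1.91 and 0.560 FPKM, a log2 ratio of -1.77, and passed through Hb9 control MNs only, so that the filter set its direction. Hist1h2bc went the other way, at 6.45 FPKM in Hb9 and 10.5 FPKM in A2 MNs, a log2 ratio of 0.70 that did not reach 2-fold. Its value in A2 SMA MNs was the highest listed for a replication-dependent gene, but 30.6% of its windows of 50 bases were also found in transcripts of 220 other genes, so that its level is uncertain. Hist1h2bk was at 0.702 and 1.11 FPKM and passed through A2 SMA MNs only, and its level is uncertain as well, with 74.2% of windows shared. Over all 19 H2B symbols the summed FPKM was 28.1 in Hb9 control MNs and 18.4 in A2 SMA MNs, and 4 symbols were at 0 in both. Without Hist3h2ba the sums were 12.4 and 15.3 FPKM, so that the direction of the H2B sum rested on this gene.

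Of the 3 replication-dependent H4 genes that passed, only Hist1h4i reached 1 FPKM in both genotypes, at 5.37 and 7.95 FPKM, and 28.9% of its windows of 50 bases were shared with other genes. Hist1h4d at 0.647 and 1.11 FPKM and Hist4h4 at 0.349 and 1.10 FPKM passed through A2 SMA MNs only, so that the filter set their direction. The log2 ratio of Hist4h4 was 1.65, the 1 call of at least 2-fold higher among replication-dependent genes. With a pseudocount of 1 FPKM it was 0.64, and 0 genes of the class were called higher there or at a filter of 5 FPKM, so that the call rests on low values. Relative to the median gene, Hist1h4d joined it with a log2 ratio of 1.06. The summed FPKM of the 13 H4 symbols was 8.79 in Hb9 control MNs and 12.5 in A2 SMA MNs.

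Of 6 replication-dependent H1 symbols, 4 passed and 0 were listed at 0 in both genotypes. Hist1h1c was at 6.39 and 8.47 FPKM in Hb9 control and A2 SMA MNs, and Hist1h1a was at 2.08 and 2.04 FPKM, a log2 ratio of -0.03 that was 0.26 relative to the median gene. Hist1h1e was at 1.76 and 0.767 FPKM, a log2 ratio of -1.20 that was -0.91 relative to the median gene, so that its 2-fold call was lost there, and 32.0% of its windows were shared. Hist1h1b was at 1.20 and 0.670 FPKM. Hist1h1e and Hist1h1b passed through Hb9 control MNs only, so that their direction was set by the filter. The summed FPKM of the 6 linker symbols was 11.9 in Hb9 control MNs and 12.3 in A2 SMA MNs.

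Of 20 replication-dependent H2A symbols, 1 passed, and 6 were at 0 in both genotypes. This was Hist3h2a, at 7.28 and 5.75 FPKM, whose entry also names Trim17, so that its values cannot be assigned to the histone gene alone. Of 12 H3 symbols, 1 passed as well, Hist2h3c1.1 at 0.638 and 1.02 FPKM. Its entry shares a span of 4960 bp with 4 other entries, and GENCODE M21 held no transcript under this symbol. The level of Hist2h3c1.1 is therefore uncertain. Below 1 FPKM in both genotypes were thus 19 of 20 H2A and 11 of 12 H3 symbols, against 15 of 19 H2B and 10 of 13 H4 symbols, so that low values were the rule for all core histones of the clusters.

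Below the filter, 42 replication-dependent symbols had a value above 0 in either genotype. The higher value of these genes ranged from 0.0364 to 0.980 FPKM with a median of 0.268 FPKM. Hist1h2bp was just below the filter at 0.980 FPKM in Hb9 and 0.223 FPKM in A2 MNs, and Hist2h3c1.1 was just above it. Of these, 5 symbols (Hist1h2bh, Hist1h2ah, Hist1h4a, Hist1h2ad and Hist1h2bn, named after their values were seen) were listed at 0 in Hb9 control MNs and at 0.0880 to 0.270 FPKM in A2 SMA MNs. The reverse was seen for Hist2h2ab, also named after its values were seen, at 0.117 FPKM in Hb9 and 0 in A2 MNs. Without counts, values this low carry no direction.

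The Hist1 genes lie on chromosome 13 (NCBI m37), where gaps of over 1 Mb divide them into 24 symbols between 21807631 and 22135545, 31 symbols between 23622918 and 24026720, and Hist1h2al, named for its position, alone at 51298056. In the first block 10 of 24 symbols (41.7%) were at 0 in both genotypes, against 2 of 31 (6.45%) in the next. Named after their values were seen, the 10 shared from 71.5% (Hist1h4k) to 97.3% (Hist1h2bq) of their windows of 50 bases with other genes. The 2 of the next block, Hist1h2bf and Hist1h3e, shared 65.8% and 73.4%. Hist1h3h of the first block was above 0 with 93.9% shared. What part shared sequence has in this contrast was not tested. The median of the higher genotype was close in the blocks, at 0.249 and 0.270 FPKM, and 21 of 24 and 26 of 31 symbols were below 1 FPKM in both genotypes. The medians per genotype lay further apart. They were 0.0362 and 0.228 FPKM in Hb9 control MNs, and 0.156 and 0.225 FPKM in A2 SMA MNs. The sums were 10.4 and 12.9 FPKM in the first block and 23.4 and 29.9 FPKM in the next for Hb9 control and A2 SMA MNs. Both sums were thus higher in A2 SMA MNs, by log2 ratios of 0.31 and 0.36 as deposited, but most of the difference came from a few genes. Without Hist1h4i the first block summed to 5.01 and 4.90 FPKM. This turns the direction as deposited but not relative to the median gene, where the log2 ratio was 0.25. Without Hist1h2bc and Hist1h1c the next block summed to 10.5 and 10.9 FPKM. Its direction did not turn, with a log2 ratio of 0.058, or 0.34 relative to the median gene. Hist1h4i, Hist1h2bc and Hist1h1c were left out after their values were seen.

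The 10 Hist2 symbols on chromosome 3 summed to 4.29 and 2.69 FPKM. Most of this difference came from Hist2h2be, and without it, a choice made after the values were seen, the sums were 2.37 and 2.13 FPKM, a log2 ratio of -0.16 that was 0.13 relative to the median gene. The 3 Hist3 symbols on chromosome 11, between 58762412 and 58791552, summed to 23.2 and 9.01 FPKM. The Hist3 cluster, with 3 of 70 symbols, thus held more FPKM in Hb9 control MNs than either Hist2 or the first Hist1 block, and most of it was Hist3h2ba. Hist4h4, whose value was higher in A2 SMA MNs, lies alone on chromosome 6 between 136752588 and 136752900, next to H2afj, which begins at 136756768.

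**Figure D3:**
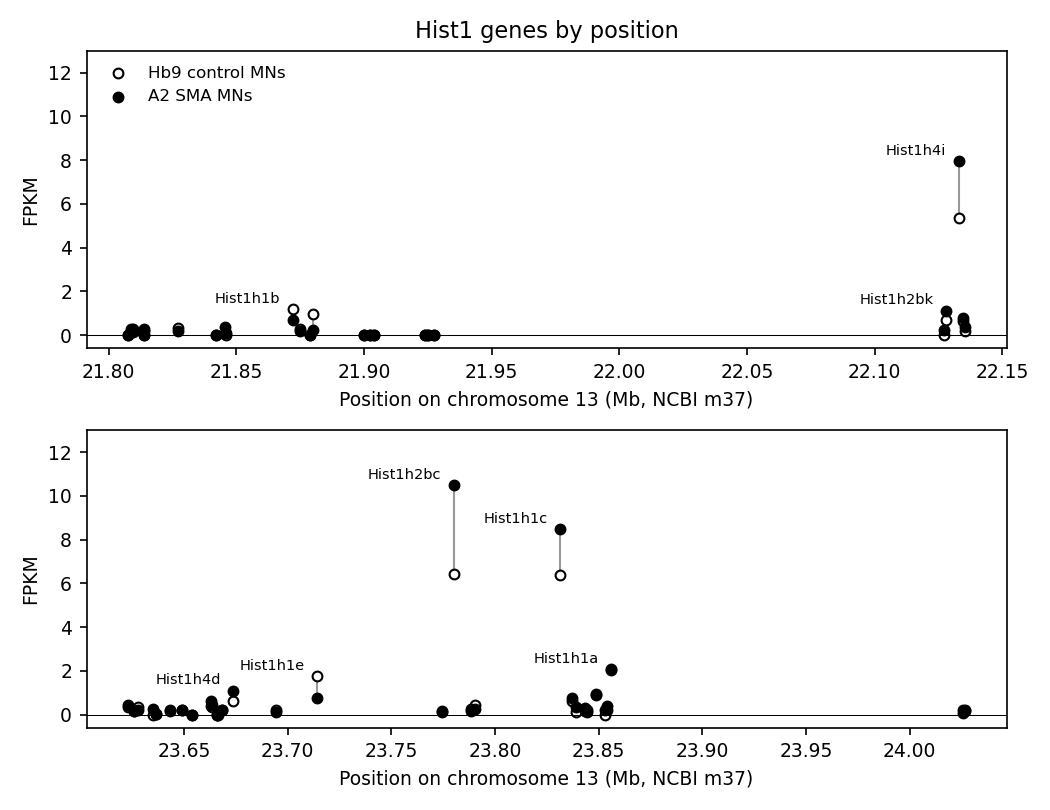
Pooled FPKM (y axis) of the replication-dependent Hist1 genes by position on chromosome 13 (x axis, Mb, NCBI m37), in Hb9 control MNs (open points) and A2 SMA MNs (filled points), with 24 symbols in the upper and 31 in the lower panel and grey lines joining the values of a gene. Genes that passed the filter are named, and the others lie below 1 FPKM, most of them near 0.

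The gene models were searched for the 3′ stem-loop, since it marks the class by a feature that the symbols do not use. GENCODE M21 held transcripts for 86 of the 89 histone symbols, matched by symbol. The search took 16 bases with a perfect stem of 6 bases that begins with GG and a loop of 4 bases that begins with 3 T, on the transcribed strand. It was found in 43 of 69 replication-dependent symbols (62.3%) and in 1 of 17 variant symbols, against 0.0615% of genes outside the histone symbols. H2afx was the variant with a stem-loop. The hexamer AATAAA of poly(A) signals was found in the last 50 bases of the models of 13 replication-dependent symbols (18.8%) and of 9 variant symbols (52.9%).

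Of the 24 histone genes that passed the filter, 9 had a stem-loop with at least 5 bases on either side in their model, and these are shown because the stem-loop is the feature by which the class is known. The 16 bases of the stem-loop are in capitals, and the sequences are those of GENCODE M21 transcripts (GRCm38), 5′ to 3′ on the strand of the gene.
H2afx: acaaaGGCCCTTTTAAGGGCCaccac
Hist3h2ba: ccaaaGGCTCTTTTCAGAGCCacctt
Hist1h1c: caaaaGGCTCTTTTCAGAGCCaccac
Hist1h4i: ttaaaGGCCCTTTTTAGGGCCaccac
Hist3h2a: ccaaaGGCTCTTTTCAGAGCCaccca
Hist1h1e: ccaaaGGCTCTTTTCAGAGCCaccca
Hist1h2bk: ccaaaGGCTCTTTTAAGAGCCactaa
Hist1h4d: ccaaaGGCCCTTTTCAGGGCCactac
Hist4h4: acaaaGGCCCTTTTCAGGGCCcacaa
All 9 lie in the 3′ UTR of a transcript with 1 exon. In GRCm38 the site of Hist3h2ba is chr11:58949344-58949369 on the plus strand, that of H2afx chr9:44335235-44335260 on the plus strand, that of Hist1h1c chr13:23739507-23739532 on the plus strand and that of Hist4h4 chr6:136803993-136804018 on the minus strand.

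The models of most of these genes run on past the stem-loop. After it the model of Hist3h2ba has 169 bases, that of H2afx 822, that of Hist1h1c 840 and that of Hist4h4 2445 bases, against 30 bases for Hist1h2bk. Of the 9 models, 4 (Hist3h2ba, Hist1h1c, Hist3h2a and Hist4h4) have AATAAA near their end, beyond the stem-loop. Which form the reads came from was not tested, because the table has 1 value per gene. The entries of the table can also be shorter than these models. That of Hist4h4 spans 312 bp and that of Hist1h4d 393 bp, against models of 2863 and 1138 bases.

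Of the 43 replication-dependent models with a stem-loop, 7 (16.3%) were at 0 in both genotypes, and of the 26 without, 8 (30.8%) were. Of the 26 models, 11 hold coding sequence only and have no 3′ UTR to search, and 3 of these 11 were at 0 in both genotypes. The median share of windows found in other genes was 77.2% without and 45.8% with a stem-loop. What part the stem-loop or these differences have in the shares at 0 was not tested. The sums were 46.4 and 37.8 FPKM with a stem-loop, and 14.5 and 16.8 FPKM without, in Hb9 control and A2 SMA MNs. The log2 ratio of the sum with a stem-loop was -0.30, but -0.013 relative to the median gene. The 13 symbols with AATAAA near the model end summed to 33.8 and 20.5 FPKM, a log2 ratio of -0.72, or -0.44 relative to the median gene. The 56 without summed to 27.1 and 34.0 FPKM. Hist3h2ba is among the genes with a stem-loop and among those with AATAAA, and without it the sums were 18.1 and 17.4 FPKM with AATAAA and 30.7 and 34.6 FPKM with a stem-loop. The lower sums in A2 SMA MNs as deposited thus came mainly from this 1 gene.

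Many replication-dependent genes share sequence. The median share of windows of 50 bases that are also found in transcripts of another gene was 54.1% for replication-dependent and 14.0% for variant symbols. Among replication-dependent symbols it was 16.2% in those that passed the filter and 60.4% in those that did not. At least 50% of the windows were shared in 34 of the 57 matched symbols that did not pass and in 1 of the 12 that did. Reads of such genes could not all be placed on 1 gene, and their values are uncertain. What part this, or the selection of polyadenylated RNA, has in the low values was not tested.

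Among the genes that process and remove histone mRNAs, Lsm11 was the 1 past 2-fold as deposited. Of the 21 genes of this list, all of which passed, 1 was at least 2-fold lower and 0 at least 2-fold higher in A2 SMA MNs, against 22.2% and 6.78% of all genes, with a median log2 ratio of -0.01, or 0.27 relative to the median gene. Lsm11, a subunit of the U7 ring, was at 14.0 FPKM in Hb9 and 6.14 FPKM in A2 MNs, a log2 ratio of -1.19 that was -0.91 relative to the median gene, where it was no longer past 2-fold. Lsm10, its partner, was at 34.0 and 26.9 FPKM. Slbp, named after its value was seen, was at 50.4 and 58.5 FPKM. Snrpd3, a subunit shared with the spliceosomal rings and the most abundant of the list, was at 237 and 260 FPKM, and Zfp473, which binds the U7 snRNP, had the highest ratio at 5.77 and 8.59 FPKM.

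Of the 29 histone chaperones and factors that place variants, all passed, 1 was at least 2-fold lower and 0 were at least 2-fold higher, against 22.2% and 6.78% of all genes, with a median log2 ratio of 0.09. Relative to the median gene 0 were lower and 2 higher, against 16.5% and 10.3% of all genes, and the latter were Hat1 and Npm3. Hat1, which acetylates new H4, had the highest value in A2 SMA MNs and the highest ratio, at 211 FPKM in Hb9 and 421 FPKM in A2 MNs, a log2 ratio of 1.00 that falls just short of 2-fold as deposited and was 1.28 relative to the median gene. Nasp, a chaperone of H3 and H4, was at 226 and 323 FPKM. Ubn2 and Ubn1, which belong to the HIRA complex that places H3.3, were at 14.9 and 6.11 FPKM and at 27.3 and 14.4 FPKM. The entries of Nasp, Npm3, Ubn1 and Ubn2 carry the status FAIL, so that the 1 gene called lower as deposited, Ubn2, is such an entry. Vps72, a subunit of the complexes that place H2A.Z, was at 74.0 and 47.9 FPKM. Ubn1, Ubn2 and Vps72 were thus lower and Hat1 and Nasp higher in A2 SMA MNs, and relative to the median gene these directions were the same.

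S phase genes were mostly higher in A2 SMA MNs. Of the 26 found by symbol, 20 were higher and 6 lower, against 5375 higher and 10409 lower of all genes that passed, and the median log2 ratio was 0.36, or 0.65 relative to the median gene. At least 2-fold higher were 2 of them, near the 6.78% of all genes, and 1 was at least 2-fold lower, against 22.2% of all genes. Relative to the median gene these counts were 6 and 1, against 10.3% and 16.5% of all genes. Mcm3, part of the replicative helicase, was at 118 and 244 FPKM, and Pola1, the catalytic subunit of DNA polymerase alpha, at 14.0 and 30.7 FPKM. Lig1, the DNA ligase of replication and the most abundant of the list, was at 212 and 273 FPKM. E2f2 was the gene called lower, at 8.08 and 2.88 FPKM. The summed FPKM of the S phase genes had a log2 ratio of 0.47, or 0.75 relative to the median gene. The part of S phase in the histone values was not tested.

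Outside the symbol patterns, Cenpa, the H3 variant of centromeres, was at 150 FPKM in Hb9 and 182 FPKM in A2 MNs with the status FAIL, and Hils1, a spermatid linker histone, was listed at 0 in both. Of the list of other RNAs without a poly(A) tail, 2 of 16 were found by symbol. Malat1, a nuclear noncoding RNA whose end is a triple helix, was at 147 and 95.7 FPKM with the status FAIL. Rnu73b was at 13.4 and 13.6 FPKM in an entry that also names the protein-coding gene Rps3a, so that it cannot be read as a level of the small RNA. With 2 entries, this list gives no level to set the replication-dependent genes against.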

How the data were processed

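RNA of FACS-purified MNs, 3 samples per genotype, was sequenced by the authors as single-end reads. Per the submitters' processing notes and the study's methods, reads were checked with FastQC 0.10.1, trimmed with cutadapt, mapped to NCBI m37 with TopHat2 2.04, assembled with Cufflinks and compared with Cuffdiff. The deposited FPKM values are 1 per genotype and entry, pooled by the authors over the samples. The table's columns of fold change, test statistic, p, q and significance hold the authors' own comparison and were not used.

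Values were read in pandas 2.3.3 and numpy 2.4.6 (Python 3.11.15) and plotted in matplotlib 3.10.9. No pseudocount was added to the log2 ratios, and a gene had to reach 1 FPKM in a genotype and exceed 0 in the other. No test was run. The calculation was tested on simulated data. Named genes were variant genes passing the filter, the 15 highest replication-dependent genes, the 5 highest and 5 lowest ratios among those passing, Smn1, and per other list the 5 most abundant and the 3 highest and 3 lowest ratios, with exceptions as stated. Members and lists were chosen with earlier results of these data known. Sequences were matched to GENCODE M21 by symbol. Alternatives were pseudocounts, filters, centring, other treatment of entries, and genes left out.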

Additional observations from a re-analysis of the deposited data

How the results depend on the processing

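With a pseudocount of 1 FPKM, the median log2 ratio was 0.30 for replication-dependent and -0.32 for variant genes (difference -0.62), and 1 replication-dependent gene was at least 2-fold lower and 0 higher. Without a filter the medians were 0.022 and -0.32 (difference -0.34), with 7 replication-dependent genes lower, 4 higher and 1 variant gene higher. At 5 FPKM, 1 replication-dependent gene was lower and 0 were higher. Relative to the median gene the medians were 0.69 and -0.14, the sums turned to 0.14 for replication-dependent and moved to -0.10 for variant genes, 2 replication-dependent genes and 1 variant gene were at least 2-fold higher, and 1 variant gene was lower. Without the status FAIL the variant median was -0.32 (difference -0.73). Without H2afx and the germline genes it was -0.57 (difference -0.98) and the variant sum -0.53. Chosen after seeing the data, leaving out pseudogenes, H2afy3 or H1f0 each gave a variant median of -0.32 (difference -0.73). Without pseudogenes 0 percent of variant genes were at 0, without H1f0 the variant sum was -0.093, and without Hist3h2ba the replication-dependent sum was 0.19. The causes were not tested beyond what each alternative leaves out.

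Centring turned the sign of 4 of the 24 single genes (H2afj, H2afz, H3f3b and Hist1h1a). No other alternative turned one. A filter or pseudocount gave no separate value for sums and shares at 0. No paired analysis was possible because the table holds 1 pooled value per genotype, although the samples share replicate numbers, and for the same reason no sample was left out. How many reads lie behind a gene's value was not worked out here, which limits genes below 1 FPKM most.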

Other observations

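The U7 RNA, which pairs with histone pre-mRNA, appears in the table under the name of its family. These names were chosen after the table was seen. Of 115 entries that name U7 alone, 113 (98.3%) were listed at 0 FPKM in both genotypes. The others were an entry on chromosome 2 at 3.33 FPKM in Hb9 control MNs and 0 in A2 SMA MNs, and an entry on chromosome X at 0 and 1.31 FPKM. A further entry names U7 together with Atn1 and Grcc10 and was at 228 and 123 FPKM, which cannot be read as a level of U7. Over 16 family names of small noncoding RNAs, such as U1, U6, 7SK and Y_RNA, 1574 of 1767 entries (89.1%) were at 0 in both genotypes and 39 reached 1 FPKM. The share at 0 was above the 21.4% of replication-dependent histone symbols, but the units differ. Every entry of a family was counted, whereas a histone symbol was counted once by its highest entry. The shares therefore do not show which kind of RNA was better retained. Many genomic copies of such families are known as pseudogenes, and the entries were not sorted by this.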
